A study of Homo sapiens with 10 samples.

Results

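Breast cancer cells (BCCs) of the highest Oct4 reporter gate, Oct4hi, were compared with BCCs of the medium gate, Oct4med. All cells were MDA-MB-231, an established basal-like human breast cancer line derived from a metastasis, and all carried pEGFP1-Oct3/4, in which the Oct4A promoter drives green fluorescent protein (GFP). Stable transfectants had been selected with neomycin and sorted by GFP intensity. Per the labels, Oct4hi and Oct4low BCCs were the top and the bottom 5% of cells by GFP, and Oct4med BCCs were the population between them. The study's methods give the same gates, while its results describe a wider one for Oct4low BCCs. For Oct4med BCCs, its results give a share of cells well short of all those between the outer gates. Whether the transfectants were 1 clone or a pool is not given in the sources used here. The comparison takes the 4 arrays labelled High-OCT4 and the 2 arrays labelled Medium-OCT4 of 10 arrays in all. The 4 Oct4low arrays entered the model for the spread between replicates, and their levels are given beside the results. No batch is recorded in the labels. The labels call the arrays biological replicates, and the study describes RNA of separate sets of cells. For labelling, 100 ng of total RNA was used per array. Of 25750 probe sets on the deposited log2 scale, the 25727 that are not controls of the manufacturer were tested, and 12082 genes were each represented by their brightest probe set with a single gene symbol. The transcript of Oct4 and GFP itself are not analysed here, so the gates were not checked against them.

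Oct4 is a transcription factor with a POU domain that maintains the undifferentiated state of embryonic cells. In breast cancer lines, activity of its promoter has been used to sort cells that differ in stem-like behaviour. Several gene families described below are known to respond within hours to growth factors, stress, adhesion and the cell cycle. Among these are the ID proteins, which bind basic helix-loop-helix factors and keep them from DNA, the immediate-early transcription factors, and contractile genes controlled by the serum response factor SRF.

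More genes were higher than lower in Oct4hi BCCs, and the largest differences were rises. At an adjusted p under 0.05 from limma's moderated test (Benjamini-Hochberg over the 25727 probe sets), 996 genes (8.24%) rose and 456 genes (3.77%) fell from Oct4med to Oct4hi BCCs, 1452 (12%) in all. By over 2-fold, 79 genes (0.654%) were higher and 11 (0.091%) were lower. Over probe sets, 1935 (7.52%) were higher and 828 (3.22%) were lower, 2763 (10.7%) in all, and 7041 had an unadjusted p under 0.05. The median difference over all genes was -0.06 (log2). The split by direction depended on scaling. Quantile normalizing the values again gave 656 genes higher and 780 lower, so that 45.7% of the called genes were higher against 68.6% on the deposited scale, while shifting each array to a common median gave 1155 and 301 (79.3% higher). The authors' filter had already taken out features that changed little, so these percentages are shares of the remaining genes. Without Oct4med replicate 1, 345 genes were higher and 117 lower, and without Oct4med replicate 2, 925 and 490.

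**Figure D1:**
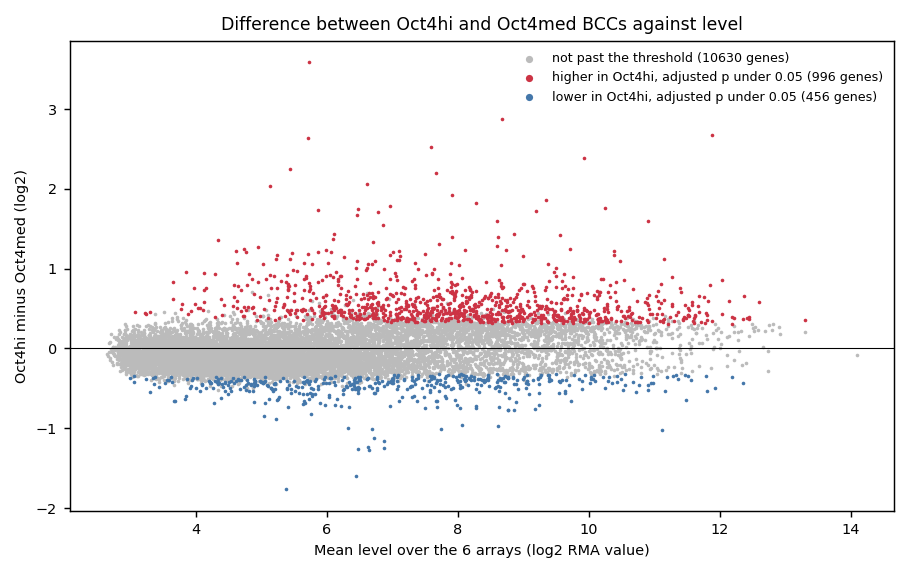
Each point is a gene, with its mean level over the 6 arrays (log2 RMA value, horizontal) and its difference, Oct4hi minus Oct4med (log2, vertical). The 996 genes higher in Oct4hi BCCs (red) reach a difference of 3.59, while the 456 lower genes (blue) reach -1.76 and the 10630 grey genes did not pass the threshold.

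The 2 Oct4med arrays were not equally far from the Oct4hi arrays. Over all tested probe sets, the mean Euclidean distance was 59.1 from the Oct4hi arrays to Oct4med replicate 1 and 48.2 to replicate 2. It was 36.2 among the Oct4hi arrays and 41.4 between the 2 Oct4med arrays. Values of Oct4med replicate 1 were also the least spread of these arrays, with an SD across probe sets of 1.85, against 1.92 for replicate 2 and 1.93 to 1.97 for Oct4hi arrays. Among the 6432 brightest probe sets, the median difference of Oct4hi BCCs from Oct4med replicate 1 was 0.22 and from replicate 2 it was 0.05. It was 0.14 against both together, and 0.03 after quantile normalization. The part of this spread in the calls was not tested beyond the rescaled and leave-one-out values given here. The median SD between replicates was 0.13 for Oct4hi and 0.12 for Oct4med BCCs (log2).

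Among the control probe sets of the manufacturer, those for 28S ribosomal RNA differed most. The probe set for its 5′ part lay at 13.60, 13.54, 13.56 and 13.57 in Oct4hi and at 12.64 and 12.77 in Oct4med BCCs, with a mean of 13.60 in Oct4low BCCs. Both Oct4med arrays were thus below every Oct4hi array, by 0.87 on average. The probe set for the middle part differed by 0.36 in the same direction, and the one for the 3′ part, which was dim, by -0.06. For 18S ribosomal RNA the difference was 0.17 with overlapping arrays, and for the 5′ part of β-actin it was -0.23. The 5′ and middle values of 28S ribosomal RNA were lower in both Oct4med arrays than in every array of the other subsets. Within this comparison they differed between the gates, as did gene groups below. The part of the control values in those results was not tested.

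**Figure D2:**
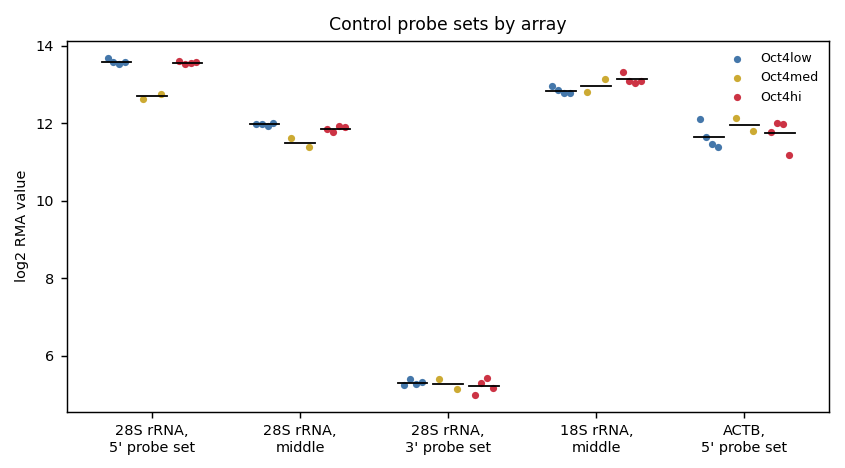
Level (log2 RMA value, vertical) of 5 control probe sets in each of the 10 arrays, coloured by subset; black lines are subset means. The 28S rRNA 5′ probe set has a mean of 12.70 in Oct4med, 13.57 in Oct4hi and 13.60 in Oct4low BCCs.

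Marker lists did not set the line apart by the share of members above the median level. Of 10 measured markers of basal breast cancer cells, 8 lay at or above 5.09, the median of all values in the 6 arrays (CD44, CAV1, CAV2, ANXA1, S100A4, PLAU, EGFR and MET; 2 of 4 dimmer probe sets of CD44 were called higher and its brightest did not pass), and their summed log2 level was 88.5 to 89.0 in Oct4hi and 89.7 in both Oct4med arrays. AXL and LGALS1 were among the markers with no measured probe set. S100A4, a calcium-binding protein of motile cells, was higher in Oct4hi BCCs by 0.70, and ANXA1, a phospholipid-binding protein, fell by 0.43, a call lost without Oct4med replicate 1. Of 5 measured erythroid markers and 8 measured leukocyte markers none passed limma's test (0 and 1 at an unadjusted p under 0.05, and none by the methods' t-test). At or above the median of all values lay 6 of 8 luminal, 4 of 5 erythroid, 4 of 8 leukocyte and 5 of 9 stromal markers. The leukocyte markers there were CD3D, CD3E, CD14 and CSF1R, whereas PTPRC, the common leukocyte antigen, MS4A1 and LYZ lay below it. The summed log2 level of the leukocyte markers was 36.95 to 38.23 in Oct4hi and 36.53 to 37.56 in Oct4med arrays, and that of the stromal markers 47.38 to 48.52 and 48.30 to 48.54. Of 9 stromal markers, PECAM1, an adhesion molecule of endothelial cells, was lower by 0.66. Of 8 measured luminal markers, TFF1 was higher by 0.84 (not without Oct4med replicate 1 or by the methods' t-test), MLPH was lower by 0.74 and GATA3 by 0.38, the last lost in most alternatives. KRT8, KRT18, KRT19 and FOXA1 had no measured probe set. In bulk RNA, fewer cells with a transcript and less transcript per cell cannot be told apart.

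The 20 largest rises, from 1.67 to 3.59 (log2), were led by an uncharacterized transcript, a dehydrogenase, a small GTPase and a regulator of neuronal genes. By rule these are genes past the threshold with no overlap between Oct4hi and Oct4med arrays and a mean in Oct4hi BCCs at or above the median of all values, and 948 rises qualified, in an array set where 37.8% of all genes did not overlap. LOC105371703 lay at 6.87, 6.98, 6.80 and 7.05 in Oct4hi and at 3.38 and 3.30 in Oct4med BCCs, the largest difference of all (3.59 ± 0.11, SE, 12-fold, adjusted p = 1.55e-11). DHRS2, a short-chain dehydrogenase of mitochondria and nucleus, was at 9.56, 9.76, 9.55 and 9.69 against 6.79 and 6.73 (2.88 ± 0.13, adjusted p = 6.12e-10). RAP1A, a small GTPase of adhesion signalling, was at 12.73, 12.68, 12.84 and 12.85 against 10.08 and 10.12 (2.67 ± 0.10, adjusted p = 1.1e-10). The arrays of the 2 subsets were far apart for all 3 genes, where the rule already required no overlap. The probe sets of RAP1A disagreed, however. A further one was higher by 2.64, while the third was lower by 0.49 (adjusted p = 0.00947). The study also reports that the RAP1A difference on its arrays was not borne out by PCR or western blot. AUTS2, a chromatin-associated protein of neuronal development, rose by 2.64 ± 0.17, from 4.06 and 3.85 to between 6.33 and 6.85, but a dimmer probe set did not pass (0.08, adjusted p = 0.754). ALPP, the placental alkaline phosphatase, rose by 2.52 ± 0.13, and TENM2, a transmembrane adhesion protein of the teneurin family, by 2.39 ± 0.10. In 5 of these 20 genes the Oct4med mean lay below the median of all values, where background limits how exactly a fold can be measured. All 20 kept their call in every alternative that measured them.

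Where the Oct4low level lay differed among these genes. For DHRS2, AUTS2, CNN1 (calponin, which binds actin in smooth muscle), DAPK1 (a death-associated kinase), MFAP5 (a microfibril protein), NPPB (a natriuretic peptide) and TMEM132D-AS1, Oct4med minus Oct4low did not pass limma's test, with DHRS2 at 6.69 ± 0.21 (SD, n = 4) and CNN1 at 5.26 ± 0.15 in Oct4low BCCs. For 12 others Oct4med BCCs were below Oct4low BCCs. SNAI2, the EMT transcription factor Slug, was at 10.85, 10.87, 10.79 and 10.81 in Oct4hi, at 9.03 and 9.10 in Oct4med and at 10.66 ± 0.08 in Oct4low BCCs, so that the Oct4med level was the lowest and Oct4hi minus Oct4low did not pass (0.17, adjusted p = 0.185). ACTG2, a smooth muscle γ-actin, had the same order, with 8.43, 8.35, 8.33 and 8.48 in Oct4hi, 6.19 and 6.20 in Oct4med and 8.17 ± 0.07 in Oct4low BCCs. Oct4hi minus Oct4low was 0.22 there (adjusted p = 0.0784). A dimmer ACTG2 probe set did not rise (-0.20, adjusted p = 0.322), and one of DAPK1 did not pass either (0.08). RAP1A alone of the 20 was higher in Oct4med than in Oct4low BCCs (8.31 ± 0.03). These comparisons share arrays. Against Oct4low BCCs, 1320 genes (10.9%) were higher and 1018 (8.43%) lower in Oct4hi (19.4% in all), and 264 (2.19%) were higher and 631 (5.22%) lower in Oct4med BCCs (7.41% in all).

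**Figure D3:**
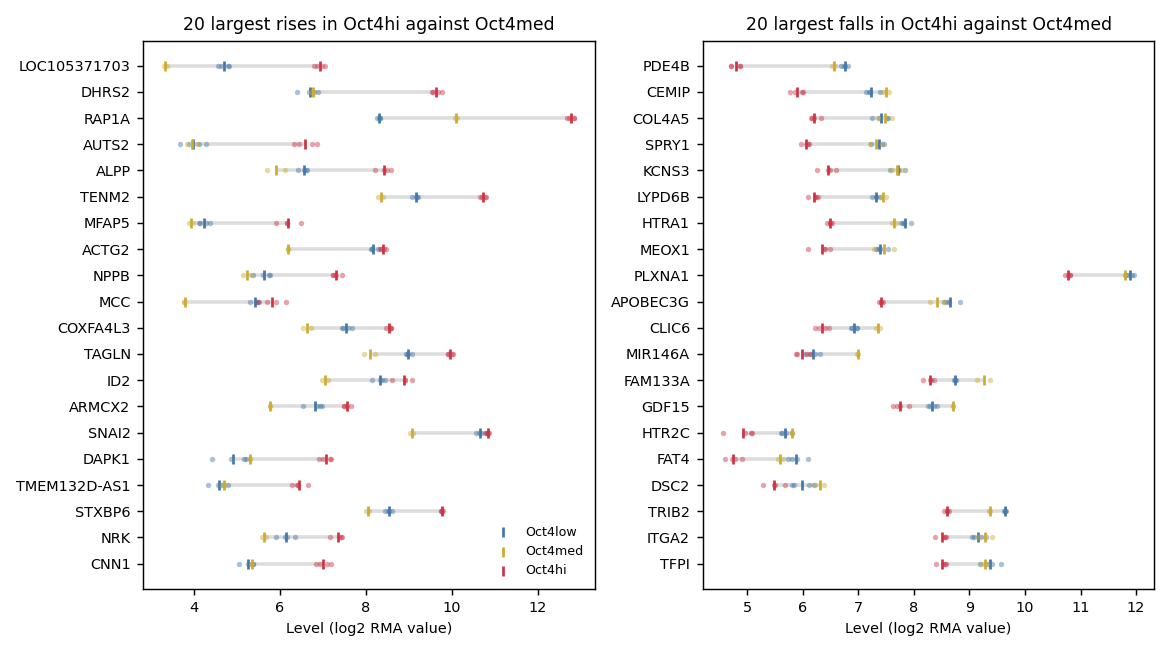
Level (log2 RMA value, horizontal) of the 20 largest rises (left) and 20 largest falls (right) in Oct4hi against Oct4med BCCs; small points are arrays, vertical marks are subset means. SNAI2 and ACTG2 have their Oct4low mean (10.66 and 8.17) near the Oct4hi mean, DHRS2 and CNN1 (6.69 and 5.26) near the Oct4med mean, and most falls have Oct4low beside Oct4med.

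The 20 largest falls were smaller, from -1.76 to -0.77, and included an enzyme that degrades cyclic AMP, matrix proteins and an antagonist of receptor tyrosine kinases; 389 falls qualified. PDE4B, the cyclic AMP phosphodiesterase, was at 4.71, 4.86, 4.72 and 4.87 in Oct4hi and at 6.53 and 6.59 in Oct4med BCCs (-1.76 ± 0.10, adjusted p = 1.32e-08). The Oct4hi level was below the median of all values, and a dimmer probe set did not pass (-0.41, adjusted p = 0.0905). CEMIP, a hyaluronan-binding protein of the cell surface, had a mean of 5.90 in Oct4hi against 7.56 and 7.44 in Oct4med BCCs (-1.59 ± 0.11, adjusted p = 1.57e-07), although its dimmer probe set did not differ by the test (-0.11). COL4A5, a chain of basement membrane collagen, fell by 1.27 ± 0.12, SPRY1, which restrains receptor tyrosine kinase signalling, by 1.26 ± 0.11, and HTRA1, a secreted serine protease, by 1.16 ± 0.10. PLXNA1, a semaphorin receptor and the brightest of these genes, was at 10.72, 10.81, 10.77 and 10.81 against 11.80 and 11.80 (-1.02 ± 0.10). GDF15, a stress-induced cytokine, fell by 0.96 ± 0.11, and ITGA2, the collagen-binding integrin subunit, by 0.77 ± 0.12. For each of them no Oct4hi array reached an Oct4med array, which the rule required. Dimmer probe sets of SPRY1 (-0.25), PLXNA1 (-0.34) and GDF15 (-0.17) did not pass. In Oct4low BCCs most of these genes were near the Oct4med level: Oct4med minus Oct4low did not pass for 16 of 20, and was above 0 for MIR146A, FAM133A, CLIC6 and GDF15. MEOX1, HTR2C and DSC2 lost the call with the methods' t-test, run here without the study's random variance model.

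ID genes rose together. ID1 was at 11.41, 11.39, 11.48 and 11.47 in Oct4hi and at 9.83 and 9.86 in Oct4med BCCs (1.59 ± 0.10, 3.02-fold, adjusted p = 3.86e-08). ID2 was at 8.91, 9.07, 8.61 and 8.91 against 6.98 and 7.12 (1.82 ± 0.13, adjusted p = 1.59e-07), and ID3 at 10.09, 10.08, 10.16 and 10.16 against 8.87 in both arrays (1.25 ± 0.10, adjusted p = 6.04e-07). The Oct4med arrays lay below all Oct4hi arrays for these 3 genes. ID4 was below the median of all values in both subsets and did not pass (-0.20, 95% interval -0.48 to 0.08), although 1 of 2 dimmer probe sets was called lower. The median of the 4 genes was 1.42, beside -0.06 over all genes. In Oct4low BCCs, ID1 was at 11.54 ± 0.09 and ID3 at 10.58 ± 0.07, both at or above the Oct4hi level, while ID2 was at 8.32 ± 0.13, between the other subsets. The 3 calls held in every alternative that kept their probe sets.

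ID genes are known targets of BMP signalling. Genes of TGF-β, activin and BMP signalling, taken as 1 list, changed in both directions, and a link to the ID genes was not tested. Of 30 measured genes of TGF-β, activin and BMP signalling, 6 were higher and 5 were lower, beside 8.24% and 3.77% of all genes (5 and 2 without Oct4med replicate 1), with a median of 0.00. Among ligands, BMP4 was at 8.62, 8.68, 8.80 and 8.57 in Oct4hi against 9.38 and 9.29 in Oct4med BCCs and fell by 0.67 ± 0.11. The activin chains INHBB and INHBA rose by 0.75 ± 0.10 and 0.63 ± 0.11, and TGFB2 by 0.62 ± 0.11, while TGFB1 did not pass (-0.28, 95% interval -0.50 to -0.05, adjusted p = 0.102). Among receptors and modulators, BAMBI, a pseudoreceptor that dampens BMP and TGF-β signals, rose by 0.57 ± 0.10. TGFBR3, a coreceptor, was lower by 0.50, a call lost without Oct4med replicate 1, as were LTBP1 (-0.46) and FST (-0.38), which hold ligands in the matrix or block activin. TGFBR1 was higher by 1.44 ± 0.18 (lost by the methods' t-test) on a probe set with 1 Oct4hi array apart from the others, and its dimmer probe set did not pass (0.23). SMAD6 was also among the higher members, while TGFBR2 and SMAD4 did not pass (0.02 and 0.09).

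Contractile genes rose in part. Of 14 measured genes of contractility and targets of SRF or YAP, 6 were higher and none was lower, beside 8.24% and 3.77% of all genes, with a median of 0.32 (5 and 0 after quantile normalization and also without Oct4med replicate 1; 0 lower also by the methods' t-test, and 8 of 14 had an unadjusted p under 0.05 in either direction). After ACTG2, TAGLN (transgelin, an actin-binding protein) was at 9.91, 9.99, 9.91 and 10.02 in Oct4hi against 8.22 and 7.96 in Oct4med BCCs (1.86 ± 0.11, adjusted p = 1.23e-08). CNN1 was at 6.93, 7.09, 7.19 and 6.83 against 5.34 and 5.35 (1.67 ± 0.12). ANKRD1, a YAP target of strained muscle, rose by 0.81 ± 0.11 and MYL9, a regulatory light chain of myosin, by 0.49 ± 0.10. AJUBA rose by 0.40 but lost the call after quantile normalization. ACTA2, TPM1, TPM2, CALD1, VCL and TPM4 did not pass, between -0.34 and 0.34, although both dimmer probe sets of TPM1 were called higher, and SRF itself did not differ by the test (95% interval -0.28 to 0.28). A CArG box, the element that SRF reads, lay 2 times in the promoter of ACTG2 and in 1.29% of 27305 RefSeq promoters. It is shown here because ACTG2 is the largest rise of the list: 250 bases before the start at chr2:73892758-73893007 (GRCh38.p14, plus strand), with CArG boxes and, read on the opposite strand, TATAAA in capitals.
ACTG2: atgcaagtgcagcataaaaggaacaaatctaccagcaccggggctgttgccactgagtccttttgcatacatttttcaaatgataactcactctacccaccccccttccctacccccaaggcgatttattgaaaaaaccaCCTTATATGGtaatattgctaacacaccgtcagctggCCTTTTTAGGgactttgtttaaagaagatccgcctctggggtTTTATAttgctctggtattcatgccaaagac
The CArG boxes stand at -110 to -101 and at -73 to -64 from the start. Of the 12 measured members with a promoter in the table, 3 held the element in the window of 300 bases, among them TPM4 and SRF, which did not pass. TAGLN had no entry.

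Histone transcripts were higher in Oct4hi BCCs for 7 of 11 measured genes and lower for none, beside 8.24% and 3.77% of all genes, with a median of 0.62 (7 and 0 after quantile normalization, 5 and 0 without Oct4med replicate 1; 0 lower also by the methods' t-test; 7 of 11 with an unadjusted p under 0.05). Most histone mRNAs of S phase end in a stem-loop without poly(A), and the array's labelling primes on poly(A), so the values reflect the polyadenylated part. H2BC12 was at 10.50, 10.64, 10.61 and 10.61 in Oct4hi and at 9.78 and 9.82 in Oct4med BCCs (0.79 ± 0.10, adjusted p = 0.000127). H2BC21 was at 7.12, 7.18, 7.13 and 7.19 against 6.35 and 6.46 (0.75 ± 0.10), and H2BC4 at 6.43, 6.53, 6.25 and 6.65 against 5.09 and 5.43 (1.21 ± 0.14). None of these arrays overlapped. H2BC5, H2BC6, H2BC9 and H2AC6 rose by 0.57 to 0.68, of which H2BC9 and H2AC6 lost the call without Oct4med replicate 1. H1-2, the only bright member that did not pass, was at 8.67 and 8.55 on average (0.12, 95% interval -0.18 to 0.42), and H2AC8, H2AJ and H4C8 lay below the median of all values. Histone genes are alike, so that a probe set may also bind transcripts of another copy, which was not tested. For the 7 higher genes, Oct4low BCCs had the highest means, with 10.89 ± 0.09 for H2BC12 and 7.94 ± 0.09 for H2BC21. Against Oct4low BCCs, 7 of the 11 genes fell in Oct4med and 5 in Oct4hi BCCs, beside 5.22% and 8.43% of all genes. The probe set for the 5′ part of 28S ribosomal RNA was lower in Oct4med BCCs by 0.87 at the same time.

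Promoters of most measured histone genes held an octamer, ATTTGCAT, which POU-domain factors read. On either strand of the 300 bases from 250 before to 50 after the start, it lay in 1.8% of 27305 RefSeq promoters, in 7 of 11 measured histone genes and in 6 of the 7 that were higher. H2AC8, which did not pass, held it too, and H2BC5, which was higher, did not. All measured H2B genes of the list were higher, and the only other higher gene was H2AC6. The octamer's share among the higher genes thus cannot be told apart from its share among H2B genes. The shares for CCAAT were 35.7% of all promoters and 10 of 11, and for TATAAA 11.95% and 7 of 11. These letters are a description of the windows, and binding was not measured. The promoters of 4 genes are shown as the 250 bases before the start (GRCh38.p14), with the octamer, CCAAT and TATAAA in capitals on either strand: H2BC4 (chr6:26123927-26124176, minus strand), H2AC6 (chr6:26123922-26124171, plus strand), H2BC12 (chr6:27146859-27147108, minus strand) and H2BC21 (chr1:149886683-149886932, minus strand).
H2BC4: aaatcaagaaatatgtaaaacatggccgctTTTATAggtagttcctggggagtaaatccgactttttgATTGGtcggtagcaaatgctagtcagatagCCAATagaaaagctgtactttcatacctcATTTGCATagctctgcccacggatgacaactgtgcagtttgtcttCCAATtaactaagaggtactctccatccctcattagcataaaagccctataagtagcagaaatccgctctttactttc
H2AC6: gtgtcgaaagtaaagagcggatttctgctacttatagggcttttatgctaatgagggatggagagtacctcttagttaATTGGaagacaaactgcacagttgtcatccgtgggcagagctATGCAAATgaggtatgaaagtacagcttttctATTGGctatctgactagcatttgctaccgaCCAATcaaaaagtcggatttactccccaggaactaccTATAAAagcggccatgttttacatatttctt
H2BC12: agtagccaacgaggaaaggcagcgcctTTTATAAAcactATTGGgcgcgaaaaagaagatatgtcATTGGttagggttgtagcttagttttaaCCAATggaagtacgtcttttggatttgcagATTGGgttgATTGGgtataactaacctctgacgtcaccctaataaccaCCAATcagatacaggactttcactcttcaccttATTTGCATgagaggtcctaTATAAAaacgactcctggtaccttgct
H2BC21: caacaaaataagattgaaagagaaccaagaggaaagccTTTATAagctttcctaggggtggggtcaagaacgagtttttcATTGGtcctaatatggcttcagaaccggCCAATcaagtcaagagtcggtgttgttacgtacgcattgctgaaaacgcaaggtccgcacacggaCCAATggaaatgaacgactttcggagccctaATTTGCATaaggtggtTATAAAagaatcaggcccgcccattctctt
H2BC4 and H2AC6 are read from almost the same bases on opposite strands and share 1 octamer. In H2BC12 and H2BC21, the octamer stands at -46 to -39 from the start.

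Early-response and stress genes were higher in Oct4hi BCCs for 10 of 23 measured members and lower for 1, beside 8.24% and 3.77% of all genes, with a median of 0.30 (8 and 1 after quantile normalization, 7 and 0 without Oct4med replicate 1). GADD45B, a stress sensor, was at 10.79, 10.77, 10.76 and 10.79 in Oct4hi and at 9.62 and 9.59 in Oct4med BCCs (1.18 ± 0.10, adjusted p = 1.01e-06). ATF3, a stress-induced transcription factor, was at 11.49, 11.58, 11.62 and 11.58 against 10.73 and 10.61 (0.90 ± 0.10). KLF2, a zinc finger transcription factor, rose by 0.86 ± 0.11 and IER5 by 0.76 ± 0.10. All Oct4hi arrays were above both Oct4med arrays for these 4 genes. JUN was higher by 0.31 (adjusted p = 0.149) without passing, EGR1 did not differ by the test (95% interval -0.23 to 0.24), and FOSL2 was lower by 0.37, a call lost in several alternatives. The Oct4low level was above both for ATF3 (11.95 ± 0.06) and between them for GADD45B (10.32 ± 0.06). Against Oct4low BCCs, 16 of the 23 genes were lower in Oct4med and 7 were lower and 2 higher in Oct4hi BCCs. Over all genes, 5.22% were lower in Oct4med, and 8.43% were lower and 10.9% higher in Oct4hi BCCs.

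Of 14 genes of ATF4 and the unfolded protein response, 6 were higher and none was lower, beside 8.24% and 3.77% of all genes (median 0.31), but only 1 of them without Oct4med replicate 1 and 2 after quantile normalization. The one that held was DDIT3, the stress factor CHOP, at 9.05, 9.12, 9.08 and 9.32 in Oct4hi against 7.82 and 8.01 in Oct4med BCCs (1.23 ± 0.11, adjusted p = 3.27e-06). Of 11 measured p53 targets, 4 were higher and 1 was lower (2 and 0 without Oct4med replicate 1). CDKN1A, the cell cycle inhibitor p21, was at 9.28, 9.27, 9.28 and 9.34 against 8.60 and 8.53 (0.73 ± 0.10), with the same level in Oct4low as in Oct4hi BCCs (9.28 ± 0.05). AEN, a nuclease of apoptosis, rose by 0.63 ± 0.10 and ZMAT3, a p53-induced RNA-binding protein, fell by 0.41, while MDM2 did not pass (0.22). The dimmer probe sets of ZMAT3 did not pass (0.12, -0.30 and -0.29).

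Of 19 measured cytokine and NF-kB genes, 3 were higher and 1 was lower, beside 8.24% and 3.77% of all genes, with a median of 0.12. TNFAIP3, the feedback inhibitor A20, was at 10.87, 10.82, 10.79 and 10.85 in Oct4hi against 9.68 and 9.81 in Oct4med BCCs (1.09 ± 0.10). The neutrophil chemokines CXCL2 and CXCL1 moved apart. CXCL2 rose by 0.72 ± 0.10, although its dimmer probe set was lower without passing (-0.34, adjusted p = 0.137), and CXCL1 fell by 0.52 ± 0.11. TNF and CCL2 did not pass (0.12 and 0.18). Of 11 measured interferon genes, 7 were higher and 1 was lower, beside 8.24% and 3.77% of all genes, with a median of 0.48 (4 and 1 after quantile normalization, 3 and 0 without Oct4med replicate 1). IFIT3 was at 11.40, 11.55, 11.48 and 11.40 against 10.90 in both arrays (0.55 ± 0.10), and OASL rose by 0.55 ± 0.10. IFIT1 (0.48) and ISG15 (0.39) lost the call in some alternatives, as did B2M, the light chain of MHC class I (0.90).

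**Figure D4:**
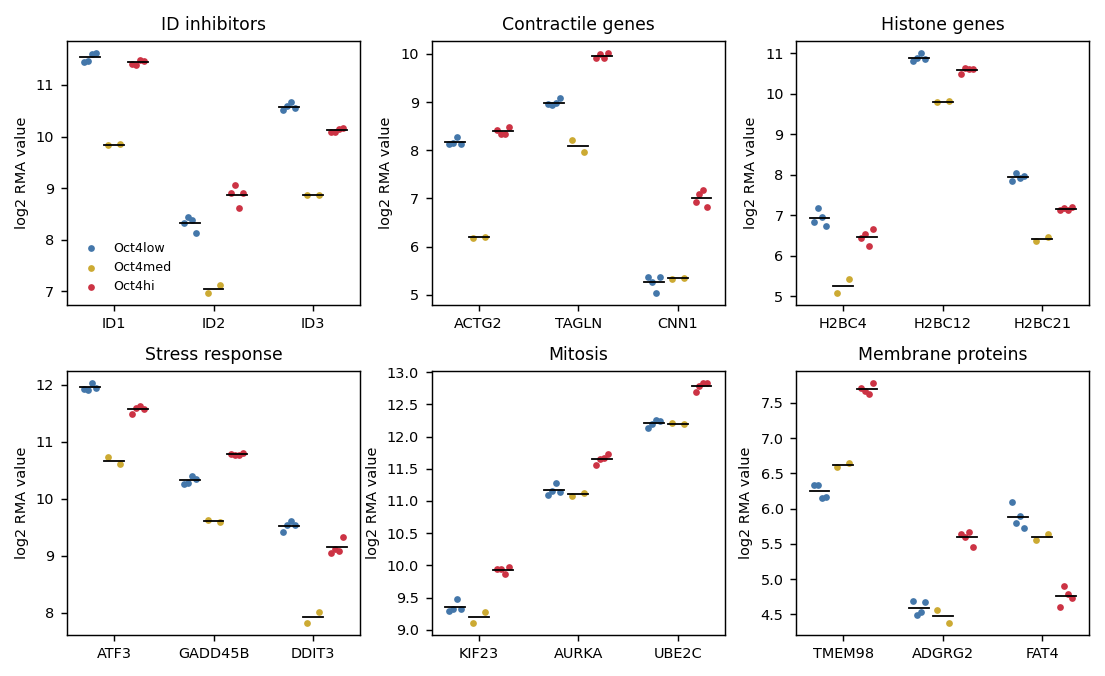
Level (log2 RMA value, vertical) of 18 genes in each of the 10 arrays, coloured by subset; black lines are subset means. For the ID and histone genes, ATF3, GADD45B and DDIT3, the Oct4med arrays are the lowest of all, while for KIF23, AURKA and UBE2C, CNN1, TMEM98 and ADGRG2 the Oct4hi arrays stand above both other subsets.

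EGFR ligands and genes of ERK feedback, taken as 1 list, did not move one way. Of 15 measured genes 2 were higher and 2 lower, beside 8.24% and 3.77% of all genes. SPRY1 (-1.26) and SPRY2 (-0.35, lost in several alternatives) were lower, MAP3K8, a kinase that activates MEK, was higher by 1.22 ± 0.13 and DUSP5, an ERK phosphatase, by 0.50 ± 0.10 (lost after quantile normalization). MAP3K8 had a dimmer probe set that did not pass (0.33).

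Of 25 measured genes of mitosis, 5 were higher and none was lower, beside 8.24% and 3.77% of all genes (3 and 0 after quantile normalization or without Oct4med replicate 1, 12 and 0 with only probe sets above the array median tested, 8 and 0 by the methods' t-test), with a median of 0.27. At an unadjusted p under 0.05 there were 18 of 25, beside 3616 of 12082 over all genes. KIF23, a kinesin of the midbody, was at 9.95, 9.94, 9.87 and 9.97 in Oct4hi against 9.11 and 9.27 in Oct4med BCCs (0.74 ± 0.10, adjusted p = 0.00026). UBE2C, the ubiquitin-conjugating enzyme of the anaphase-promoting complex, was at 12.69, 12.79, 12.83 and 12.83 against 12.20 in both arrays (0.59 ± 0.10), and AURKA, the spindle pole kinase, rose by 0.55 ± 0.10. TOP2A (0.45) and CKS2 (0.37) lost the call without Oct4med replicate 1. The other 20 did not pass, among them MKI67, the proliferation antigen Ki-67, at 0.30 (adjusted p = 0.0754). Oct4low and Oct4med BCCs had like levels of UBE2C (12.21 ± 0.05 in Oct4low). Against Oct4low BCCs, 21 of the 25 genes were higher in Oct4hi and 2 in Oct4med BCCs, beside 10.9% and 2.19% of all genes. A CHR element, TTTGAA, lay in 15.43% of all promoters and in 13 of 20 of these genes that have one in the table.

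Genes of G1/S and DNA replication did not share that direction. Of 23 measured, 1 was higher and 4 were lower, beside 8.24% and 3.77% of all genes, with a median of -0.17, and the count of lower genes was 10 after quantile normalization and 0 without Oct4med replicate 1. GINS1, of the replicative helicase, was at 10.53, 10.55, 10.52 and 10.58 in Oct4hi against 9.89 and 9.91 in Oct4med BCCs (0.65 ± 0.10). MCM2, CCNE1 and MCM10 were lower by 0.36 and E2F2 by 0.40. Against Oct4low BCCs, 9 of these genes were higher in Oct4hi and 7 in Oct4med BCCs, beside 10.9% and 2.19% of all genes.

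**Figure D5:**
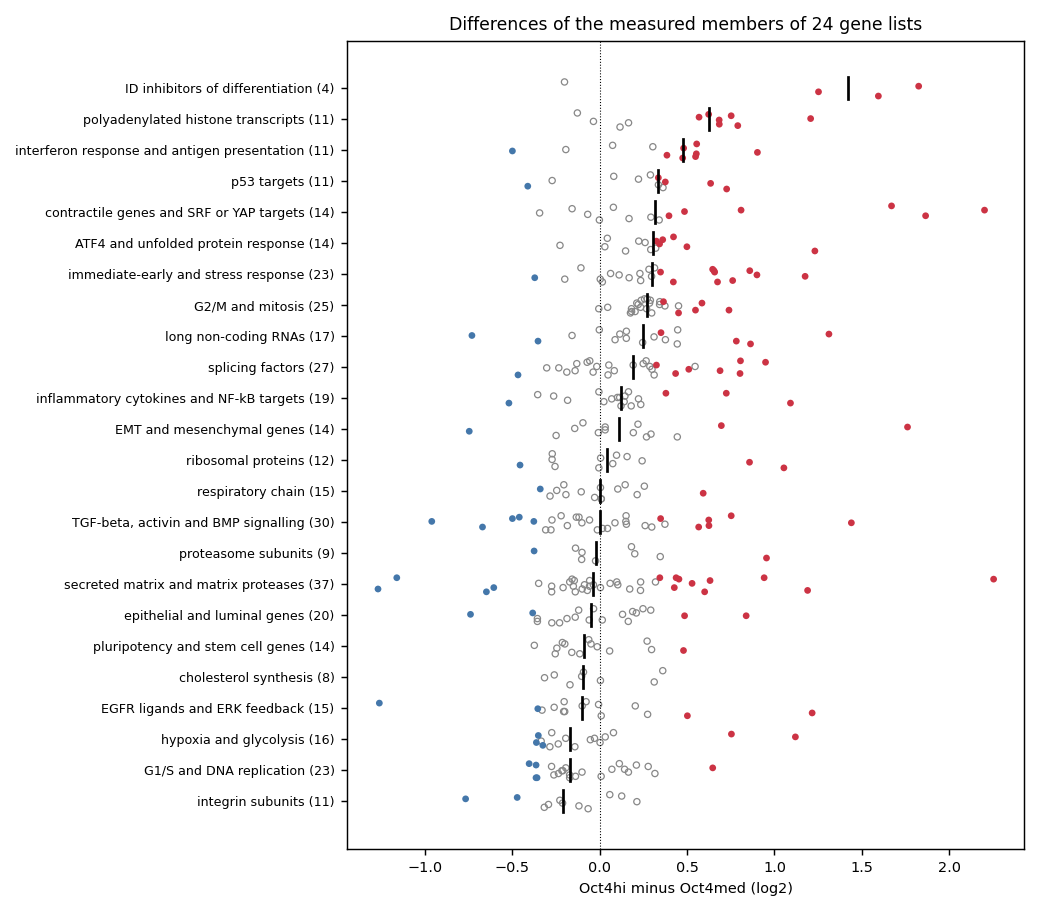
Difference, Oct4hi minus Oct4med (log2, horizontal), of each measured gene in 24 gene lists (vertical, with the number measured), ordered by median; filled points passed limma's test, open points did not, black bars are medians. The ID, histone and interferon lists have the highest medians (1.42, 0.62 and 0.48), and the integrin list the lowest (-0.21).

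Matrix genes divided by member. Of 37 measured, 10 were higher and 4 were lower, beside 8.24% and 3.77% of all genes (6 and 5 after quantile normalization, 5 and 4 without Oct4med replicate 1), with a median of -0.04. MFAP5 (2.25 ± 0.14, with dimmer probe sets at 0.40, which passed, and 0.08, which did not) and the metalloprotease ADAMTS1 (1.19 ± 0.12, with Oct4med below the median of all values and a dimmer probe set that did not pass) rose most, and TIMP1, an inhibitor of matrix proteases, was at 11.28, 11.25, 11.21 and 11.26 in Oct4hi against 10.65 in both Oct4med arrays (0.60 ± 0.10). COL4A5, HTRA1, FN1 and SPARC fell. FN1, fibronectin, was at 11.21, 11.32, 11.27 and 11.27 against 11.96 and 11.86 (-0.65 ± 0.10, adjusted p = 0.000475) and at 12.72 ± 0.01 in Oct4low BCCs, so that the 3 subsets had separate levels. SPARC fell by 0.61 ± 0.11. Of 11 integrin subunits none was higher and 2 were lower (none higher by the methods' t-test either; 4 at an unadjusted p under 0.05), ITGA2 and ITGB5 (-0.47, lost without Oct4med replicate 1, with a dimmer probe set that did not pass).

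Of 14 measured mesenchymal genes, 2 were higher and 1 was lower, beside 8.24% and 3.77% of all genes. Besides SNAI2 and S100A4, SNAI1 was higher without passing (0.44, 95% interval 0.11 to 0.77), and ZEB1 (0.19) and GJA1 (0.03) did not pass. VIM was represented by a dim probe set (0.29). SOX4, a transcription factor of progenitors, was at 8.07, 8.06, 7.90 and 8.09 in Oct4hi against 8.69 and 8.86 in Oct4med BCCs (-0.75 ± 0.11), with 1 of 4 dimmer probe sets also called. Of 20 epithelial genes 2 were higher and 2 lower, beside 8.24% and 3.77% of all genes (0 and 1 without Oct4med replicate 1): TFF1, TJP1 (0.49), MLPH and GATA3. CDH1, E-cadherin, lay at 3.92 and 4.19 on average, below the median of all values, and did not pass (-0.27). Of 14 pluripotency and stem cell genes, NES, nestin, was higher by 0.48 (lost after quantile normalization), and NANOG (-0.11), SOX2 (-0.05), ALDH1A1 (-0.21) and PROM1 (-0.16) did not pass, each at or below the median of all values.

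The remaining lists are given beside the 8.24% of all genes that were higher and the 3.77% that were lower. Of 16 measured genes of hypoxia and glycolysis 2 were higher, ADM, a vasodilator peptide (1.12 ± 0.10), and SLC2A3, a glucose transporter (0.75 ± 0.11), and 3 were lower, none of them without Oct4med replicate 1. Of 8 measured genes of cholesterol synthesis none passed limma's test (3 at an unadjusted p under 0.05, 1 by the methods' t-test). Of 27 splicing factors 7 were higher and 1 was lower, but 0 and 0 without Oct4med replicate 1 (3 and 0 by the methods' t-test). Among 12 ribosomal proteins, 15 genes of the respiratory chain and 9 proteasome subunits, 2, 1 and 1 were higher and 1, 1 and 1 were lower. Of 17 long non-coding RNAs 4 were higher and 2 lower (2 and 1 without Oct4med replicate 1), with CYTOR at 8.11, 8.01, 7.99 and 8.46 in Oct4hi against 6.76 and 6.90 in Oct4med BCCs (1.31 ± 0.13), MIR100HG lower by 0.73 ± 0.11, and MALAT1 higher by 0.86, lost without Oct4med replicate 1.

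The genes that the study names for Oct4hi and Oct4low BCCs were chosen on the Oct4hi arrays, and are no independent evidence of a direction. Of 32 measured, 18 rose and 12 fell from Oct4med to Oct4hi BCCs, beside 8.24% and 3.77% of all genes. TMEM98, a transmembrane protein, was at 7.71, 7.67, 7.63 and 7.78 in Oct4hi against 6.60 and 6.65 in Oct4med BCCs (1.07 ± 0.11, 2.10-fold, adjusted p = 6.64e-06) and at 6.25 ± 0.10 in Oct4low BCCs. ADGRG2, the adhesion receptor GPR64, was at 5.64, 5.60, 5.67 and 5.45 against 4.57 and 4.38 (1.12 ± 0.11, adjusted p = 8.22e-06), with an Oct4med level below the median of all values and near that of Oct4low BCCs (4.60 ± 0.10). FAT4, a giant protocadherin, was at 4.60, 4.91, 4.79 and 4.73 against 5.56 and 5.64 (-0.85 ± 0.12, adjusted p = 0.000326), with Oct4hi below the median of all values, and Oct4med minus Oct4low did not pass (-0.28). The arrays of Oct4hi and Oct4med BCCs did not overlap for the 3 genes, and each rests on a single probe set. ALOX5AP, which activates 5-lipoxygenase, was higher by 0.88 ± 0.11. MAOA, monoamine oxidase A, was at 9.23, 9.38, 9.43 and 9.30 against 7.96 and 7.83 (1.44 ± 0.10), with both further probe sets called the same way. MAMDC2 rose by 1.60 ± 0.11 and CYRIA by 1.16 ± 0.10, with 1 of 2 dimmer probe sets called. EDIL3 (-0.29, adjusted p = 0.0658) and DUSP4 (-0.33, adjusted p = 0.0669) did not pass, although a dimmer DUSP4 probe set did (-0.60). PADI4, which citrullinates arginine, fell by 0.56 ± 0.11 and FAM20C, a kinase of secreted proteins, by 0.53 ± 0.10, each with a dimmer probe set that did not pass.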

How the data were processed

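RNA of sorted MDA-MB-231 cells was hybridised to Affymetrix U133 Plus 2.0 arrays by the authors, who used RMA in BRB-ArrayTools and filtered probe sets near background or with little variation. The deposited values are log2 intensities after that filter, so array number, and no read depth, sets the precision. A model of subset means over all 10 arrays was fitted with limma 3.58.1 (R 4.3.3), and summaries used Python 3.11.15. Adjusted p-values are Benjamini-Hochberg over 25727 probe sets, with a threshold of 0.05. Errors of differences are SE from that fit. Of these probe sets, 18682 had 1 gene symbol, 799 several and 6246 none, and a gene took its brightest probe set. The rule named the 20 largest rises and falls and up to 4 called genes per list; members beyond it were chosen after their values were seen. Members and 30 gene lists (717 genes, 446 measured) were chosen with earlier results of these data known. The CArG motif was chosen after seeing the data. The methods' t-test, other filters and scalings, array weights, a replicate block and leaving out each array were alternatives. On simulated data of this comparison with 25727 probe sets, the fit recovered 37.8% of changes of 0.5 and 93.6% of changes of 1 (log2), with 4.8 false calls on average over 5 draws. The simulation used independent normal noise and few changes, all in probe sets at or above the median level. It held no shift of a whole array, as seen for Oct4med replicate 1, so its rates need not hold for the real arrays. Promoters came from a RefSeq table (GRCh38.p14). Some items are not reported here.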

Additional observations from a re-analysis of the deposited data

Results flagged for a closer look

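In 10 of 250 groups of 4 arrays, 1 array stood apart from the other 3 by Dixon's criterion, which chance meets in about 1 of 20 groups. Among Oct4hi arrays, replicate 4 had TGFBR1 at 7.02 (others 6.39 to 6.49), TRA2A at 8.58 (others 8 to 8.07) and ITGA2 at 8.37 (others 8.55 to 8.58), and replicate 3 had HSPA5 at 13.38 (others 13.43 to 13.44). Among Oct4low arrays, replicate 4 had BNIP3 at 12.39 and HNRNPH1 at 4.89, replicate 3 had ACTG2 at 8.28 and KLF2 at 9.37, replicate 2 had CYCS at 6.02 and replicate 1 had INHBB at 9.78. Groups of 2 arrays, as in Oct4med, could not be examined this way.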

How the results depend on the processing

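Oct4med had 2 arrays, and leaving out replicate 1 lowered the counts most. With 1 array left out, called probe sets ranged from 812 to 2730 (2763 with all), higher ones from 585 to 1948 and lower ones from 227 to 895. Called genes ranged from 462 to 1442, higher ones from 345 to 985, lower ones from 117 to 490, and list members from 89 to 146 (149 with all). Over all probe sets the median difference ranged from -0.05 to -0.0141. Where Oct4med had 1 array, it was assumed to vary like the other subsets. Quantile normalization gave 1261 lower probe sets, and 656 higher and 780 lower genes. A fit of the 6 arrays gave 1838 probe sets (482 lower) and 954 genes (262 lower), array weights 1790 (448 lower) and 953 (248 lower), and the methods' t-test 1338 (902 higher, 436 lower) and 875 (595 higher, 280 lower). Without probe sets marked _x_at or _s_at, 1777 were called (1253 higher, 524 lower). Lower genes numbered 735 with only probe sets above the array median and 301 after shifting arrays to a common median. The median difference of -0.04 became 0.0162 with the array median filter, 0.14 with the 75th percentile filter, 0.0081 with the variation filter, -0.0236 after quantile normalization and -0.0057 after the median shift. The cause of these changes was not tested, apart from fewer arrays or probe sets in a fit. In a fit that took replicate numbers as a block, 1580 probe sets (1229 higher, 351 lower) and 786 genes (597 higher, 189 lower) were called. Same-numbered Oct4hi and Oct4med arrays correlated at -0.18 and -0.03 in their deviations from the subset means. With 2 Oct4med arrays those deviations mirror each other, so the correlations cannot tell whether same-numbered arrays shared a sort. Of 123 named genes past the threshold, 38 lost the call in at least 1 alternative, 29 of them without Oct4med replicate 1. No named gene changed sign (HSPA5 came to 0 after quantile normalization), but the median difference turned positive under the 3 filters, and after quantile normalization more genes were lower than higher.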
